A study of Mus musculus with 67 samples.

Results

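Chromatin accessibility at the TEAD factors and the genes of the YAP pathway was followed through 86 elements, of 111638 in the table of values, whose annotated gene was Tead1, Tead2, Tead3, Tead4, Yap1, Wwtr1, Vgll4, Amotl2 or Lats2. An element is a consensus ATAC-seq peak, and the gene is the one whose transcription start site (TSS) lies nearest. Tead1 had 27 elements, Vgll4 17, Lats2 11, Tead4 9, Yap1 7, Amotl2 6, Wwtr1 5, Tead3 3 and Tead2 1. Which gene an element acts on was not measured.

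The elements were measured by CaTS-ATAC, in which fixed cells are stained for intracellular transcription factors and sorted, in 67 samples of neural progenitors (NPs) made from the mouse embryonic stem (ES) cell line HM1. Neuromesodermal progenitors (NMP) were taken at day 3 without SAG, an agonist of Shh signaling, in 3 samples. At days 4, 5 and 6, p0-1 cells (PAX6 without NKX6.1) came from 0 and 10 nM SAG, p2 cells (PAX6 and NKX6.1) from 10 and 100 nM, and pMN cells (OLIG2) and p3 cells (NKX2.2) from 100 and 500 nM. Pooled over SAG, p0-1, p2, pMN and p3 had 6, 6, 6 and 5 samples at day 4, 6, 6, 5 and 5 at day 5, and 5, 6, 4 and 4 at day 6. All groups share 1 cell line and its differentiation, and replicates are independent differentiations. Samples of a type and day with the same replicate number at different SAG concentrations may share a differentiation, so p-values over pooled samples can be too small, and calls lost when such samples were averaged are given beside the result. How NMPs were gated is not given in the sources used here.

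TEAD proteins bind DNA but activate genes only with a coactivator, YAP (Yap1) or its paralog TAZ (Wwtr1). The LATS kinases of the Hippo pathway phosphorylate YAP and TAZ and keep them out of the nucleus, angiomotins such as AMOTL2 hold them at cell junctions, and VGLL4 competes with YAP for TEAD. Lats2 and Amotl2 are themselves targets of YAP and TEAD, which closes a negative feedback loop, and in the neural tube YAP and TEAD are known for keeping progenitors in cycle.

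Elements are named by gene and distance from the TSS in bp, so that Tead4 +18571 is an intronic element 18571 bp downstream of the Tead4 TSS. The values are normalized counts, the reads in an element divided by the size factor of the sample, and fold changes are log2 ratios of group means after adding 1. An element was tested where its mean in the samples compared was over 100 normalized counts, and called at an adjusted p under 0.01 in limma with an absolute log2 fold change over 2. In 41 of the 52 calls between 2 groups the lower group had a mean under 100, so that the element was tested only through the group where it was high and had to differ, and these calls are a description. In the other 11, at Amotl2 −2371, Amotl2 −27282, Vgll4 +38558 and, at day 6, Tead4 +18571, both groups were over the filter. Over all samples 32 of the 86 elements (37.2%) had a mean over 100, against 28.4% of all elements. Of the 86, 43 were tested in at least 1 of 19 comparisons and the other 43 in none. By annotation, the 86 comprised 66 intronic, 13 intergenic, 4 exonic and 3 promoter-TSS elements.

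The central 300 bases of 4 elements are shown because these had the largest called change in each direction from NMP to p3 at day 4, and from pMN to p3 at day 6. They were read from the plus strand of GRCm38 (mm10). Capitals mark GGAATG, the core of the TEAD motif, or GCAAACA, the reverse complement of TGTTTGC, one of the FOXA motifs searched (TGTTTAC and TGTTTGC), and a sequence without capitals holds none of the 3 on either strand. Tead4 +18571 covers chr6:128282093-128282392 in an intron of Tead4. Tead1 +12076 covers chr7:112691283-112691582 in an intron of Tead1, and Tead1 −16062 covers chr7:112663145-112663444 upstream of it, within the transcript 2310014F06Rik. Lats2 +17560 covers chr14:57716709-57717008 in an intron that Lats2 shares with the gene model Gm49361.
Tead4 +18571: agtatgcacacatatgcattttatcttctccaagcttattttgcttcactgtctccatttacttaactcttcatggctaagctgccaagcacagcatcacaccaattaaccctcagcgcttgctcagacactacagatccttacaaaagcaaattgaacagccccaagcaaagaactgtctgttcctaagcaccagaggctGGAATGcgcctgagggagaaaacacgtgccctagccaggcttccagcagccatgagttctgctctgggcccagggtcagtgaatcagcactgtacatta
Tead1 +12076: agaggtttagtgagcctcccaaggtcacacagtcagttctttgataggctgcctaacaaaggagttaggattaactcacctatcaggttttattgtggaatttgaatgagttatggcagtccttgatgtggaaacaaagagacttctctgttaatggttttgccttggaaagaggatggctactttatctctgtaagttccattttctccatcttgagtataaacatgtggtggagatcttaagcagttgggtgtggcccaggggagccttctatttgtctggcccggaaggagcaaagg
Tead1 −16062: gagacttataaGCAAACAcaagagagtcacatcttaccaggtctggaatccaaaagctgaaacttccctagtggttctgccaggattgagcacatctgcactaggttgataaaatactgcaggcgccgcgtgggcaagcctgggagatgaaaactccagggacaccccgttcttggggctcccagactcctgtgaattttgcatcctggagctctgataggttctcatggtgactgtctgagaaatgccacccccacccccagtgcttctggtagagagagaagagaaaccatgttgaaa
Lats2 +17560: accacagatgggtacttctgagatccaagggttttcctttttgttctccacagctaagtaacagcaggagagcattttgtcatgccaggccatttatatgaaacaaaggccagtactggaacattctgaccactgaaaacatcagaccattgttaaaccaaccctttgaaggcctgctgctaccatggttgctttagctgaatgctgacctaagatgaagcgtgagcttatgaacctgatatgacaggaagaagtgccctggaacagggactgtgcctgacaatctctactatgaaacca

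GGAATG, searched on both strands of the central 300 bases, was held by 22 of the 86 elements (25.6%) and by 20.3% of all elements. TGTTTAC or TGTTTGC was held by 8 of the 86 (9.30%) and by 11.8% of all elements. Among the 16 elements called in any comparison, 3 held GGAATG and 2 a FOXA motif. The 2 were Tead1 −16062 and Tead1 +6062, and at day 6 the latter was lower in p3 (mean 273) than in pMN (908). The match in Tead1 −16062 lies outside the central 200 bases. Among all elements, a FOXA motif was held by 32.0% of those called higher in p3 than in pMN at day 6, as Tead1 −16062 was, and by 8.06% of those called lower, and GGAATG by 29.0% and 18.3%. A match of letters is not evidence of a bound factor.

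Reads in elements ranged from 9298160 to 29985325 per sample, with a median of 20254011. Summed counts at elements of marker genes were compared with the labels. Those at T were 3590 in NMP and 1073 to 1441 in the NP groups. Tbx6, also taken as a marker of NMP, did not set it apart, at 778 in NMP and 522 to 857 in the NP groups. Sums at Olig2 were highest in pMN at day 6, at 10891, and those at Foxa2, which is expressed in p3 cells, were 13109 in p3 at day 6. Those at Nkx6-1 were lowest of the NP types in p0-1 at each day (6685 at day 6), and those at Pax6 were 10459, 9514 and 8137 in p0-1, p2 and pMN at day 6 and 3693 in p3, but at day 4 did not separate p0-1, p2 and pMN, at 6545 to 6555. Nkx2-2 has 0 elements in the table and was not analysed here. In 1695 elements called higher in p3 than in pMN at day 6, replicate 3 of p2 at day 6 from 100 nM had a median variance-stabilized (VST) value of 6.82, against 5.15 to 5.75 in the other 5 p2 samples and 7.85 to 8.72 in p3, and results that rest on it are given with and without it.

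The start sites of all 9 genes were open in every group. An element holding the TSS of each gene passed the filter in every comparison, and none of these 9 was called in any of the 19. Tead1 +62493 holds another start site of Tead1, but had a mean of 52.5 normalized counts and was not tested. The condition means of these 9 spanned a median of 0.718 on the VST scale, against 2.19 for the 23 other elements over the filter. Both were close to the medians over all elements, 0.687 for promoter-TSS elements over the filter and 2.26 for the others. Per kb, the most accessible of the 9 over all samples was Amotl2 +497, with 973 normalized counts, followed by Wwtr1 −13 with 928, Tead1 +468 with 597 and Yap1 +367 with 512. Tead4 +493, Tead3 −177 and Tead2 +539 had 455, 454 and 424, and Lats2 −11290 and Vgll4 +147 the lowest, 294 and 241. The intronic element Vgll4 +32738 exceeded all 9, with 1261 per kb.

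**Figure D1:**
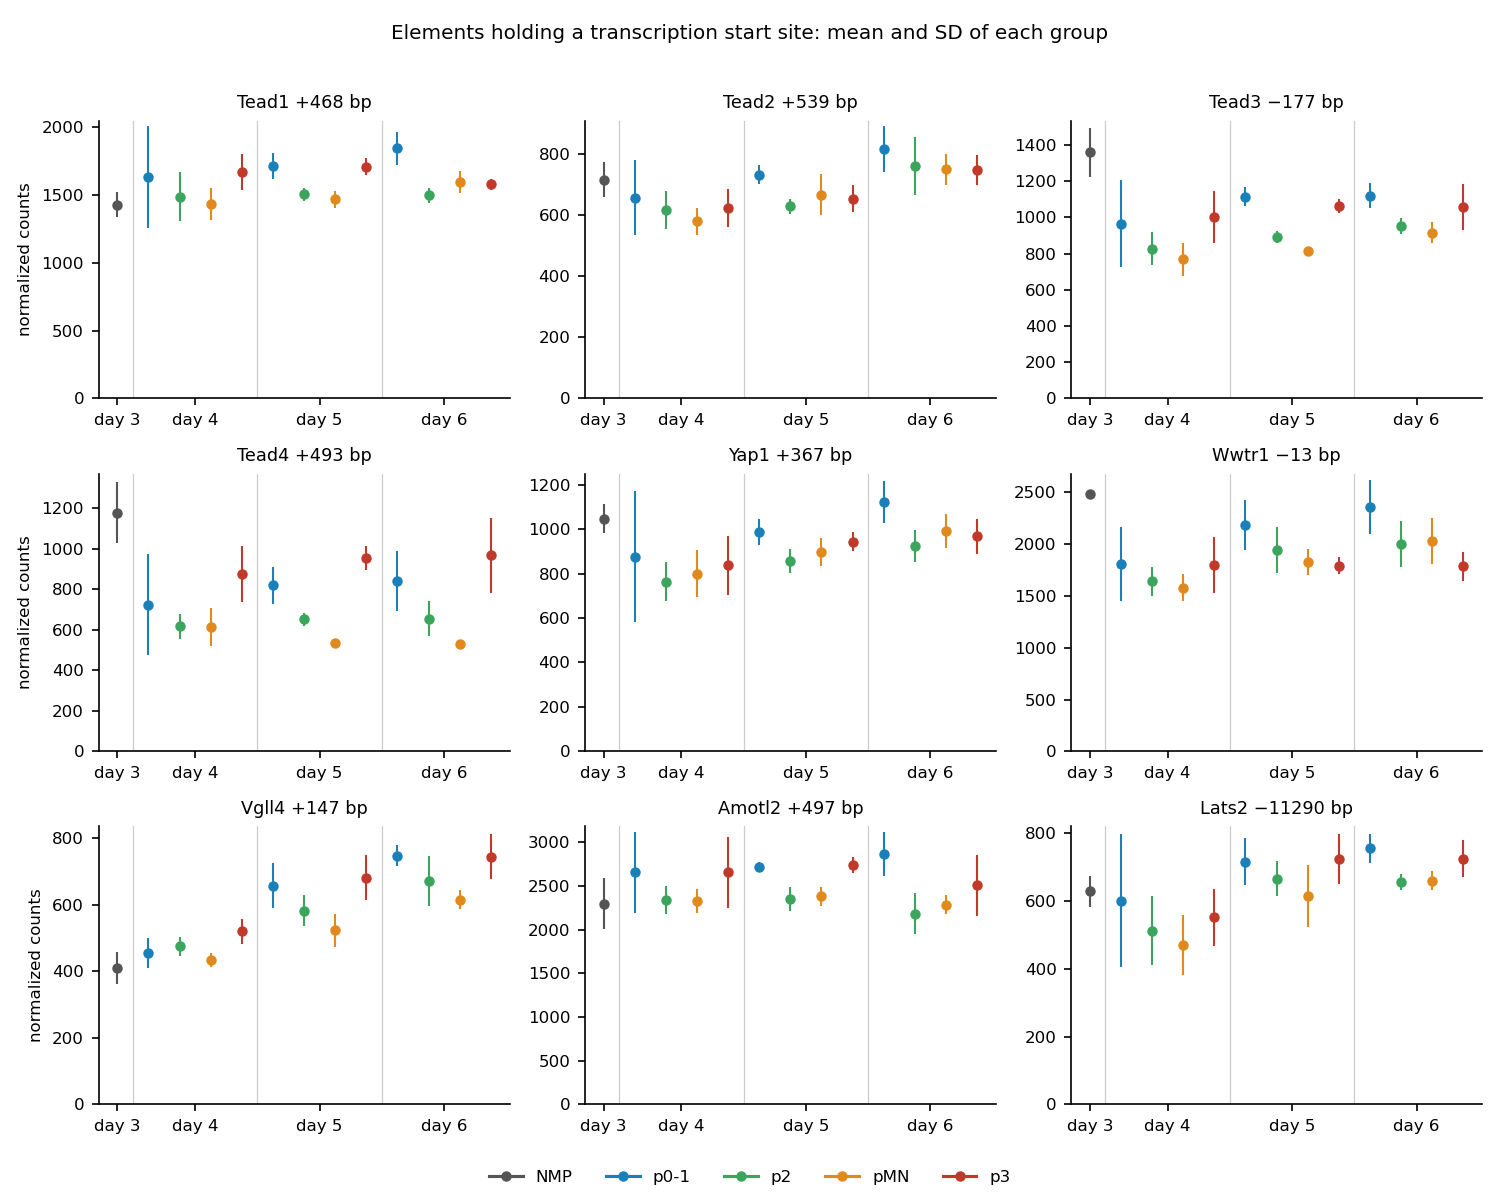
Normalized counts (y axis, from 0) of the 9 elements over the filter that hold a TSS of their gene. Groups are NMP at day 3 and each NP type at days 4, 5 and 6 (x axis). Points are group means and bars the SD over samples. No element changed by a log2 fold change of 1 in any comparison, and Tead4 +493 was higher in p3 than in pMN at each of the 3 days.

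Among the start sites of the TEAD genes, which encode the DNA-binding partners, Tead4 +493 differed most between cell types. In pMN it had 613 ± 92.9 (SD, n = 6) normalized counts at day 4 and 528 ± 22.5 (n = 4) at day 6, and in p3 875 ± 140.3 (n = 5) and 968 ± 184.9 (n = 4). At day 6 the 4 p3 samples, between 792 and 1180, lay above the 4 pMN samples, between 500.0 and 555. The p0-1 samples at day 6, between 719 and 1072, overlapped those of p3 and lay above those of pMN. Those of p2, between 531 and 788, lay below p3 and overlapped pMN. The log2 fold change from pMN to p3 was 0.51 at day 4, 0.83 at day 5 and 0.87 at day 6, with limma adjusted p of 0.00644, 1.21e-07 and 0.000392, so the difference passed the test at each day but not the fold threshold. Whether it widened between days 4 and 6 is a separate test, whose difference of 0.36 was not called (adjusted p = 0.269). Tead1 +468 and Tead2 +539 differed between pMN and p3 by under 0.3 at each day, and Tead3 −177 by 0.38 at day 5 (adjusted p = 2.89e-05).

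The start site of Wwtr1 was less accessible in p2, pMN and p3 at day 4 than in NMP, by the median fall of all elements or slightly more, and that of Yap1 in p2 and pMN by less than it. Wwtr1 −13 had 2466, 2476 and 2500 normalized counts in the NMP samples, and 1579 ± 129.6 (n = 6) in pMN at day 4. Its log2 fold change from NMP was −0.65 in pMN, −0.60 in p2 and −0.46 in p3, with adjusted p of 1.44e-06, 3.32e-06 and 0.00135, against medians over all elements of −0.49, −0.51 and −0.46. In p0-1 it was −0.46 and did not pass (adjusted p = 0.0124). It rose by 0.36 in pMN (adjusted p = 0.00152) and 0.29 in p2 (adjusted p = 0.00355) from day 4 to day 6. The medians over all elements were 0.25 and 0.27. Yap1 +367 fell by 0.45 from NMP to p2 and by 0.39 to pMN (adjusted p = 0.000991 and 0.00413), and did not pass in p0-1 (−0.26, adjusted p = 0.232) or p3 (−0.32, adjusted p = 0.0313). The other 6 Yap1 elements, with means of 8.79 to 40.5 normalized counts over all samples, were under the filter in every comparison and were not tested. Vgll4 +147, at the start of the TEAD cofactor gene, was the only one of the 9 that passed an adjusted p of 0.01 from day 4 to day 6 in all 4 cell types, rising by 0.50 to 0.71. Its means were 434 to 521 at day 4 and 616 to 748 at day 6, and the lowest sample at day 6 (583) lay above the highest at day 4 (567). Over all elements the median change from day 4 to day 6 was 0.18 to 0.27 in the 4 types.

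From NMP to NPs at day 4, distal elements of 7 of the 9 genes opened or closed. Tead2 has only the element holding its TSS, and the distal elements of Yap1 were not tested. Of the elements tested, 10 of 36 were called in p0-1, 10 of 35 in p2, 9 of 34 in pMN and 8 of 33 in p3, against 20.6%, 23.6%, 24.3% and 21.6% of all elements, so these shares were near the background. Together these were 12 elements, 8 called higher and 4 called lower, and 5 were called in all 4 comparisons. No share over all elements is given for these totals. In the same order of types, 7, 6, 5 and 5 were called higher and 3, 4, 4 and 3 lower. Of all elements 4460, 5174, 5328 and 4308 were called higher and 1928, 2248, 2339 and 2410 lower. The filter takes a mean over more NP than NMP samples, so it lets in gains more readily than losses. Wwtr1 +20591, at 137 in NMP and 11.6 to 18.3 at day 4, was not tested. The 4 comparisons share the 3 NMP samples. All elements had a median log2 fold change of −0.39 to −0.51, so an element at 0 stood above the rest of the genome, and the medians of the 86 were −0.14 in p0-1, −0.28 in p2, −0.44 in pMN and −0.32 in p3. In bulk samples, fewer cells with an open element and less opening per cell cannot be told apart.

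Tead4 +18571 had the largest gain. Its NMP samples had 27.9, 14.8 and 17.2 normalized counts, and its day 4 samples had a lowest, median and highest value of 165, 233 and 269 in p0-1, 196, 229 and 264 in p2, and 169, 193 and 218 in pMN. In p3 the 5 samples had 186, 252, 277, 297 and 308. Every NP sample was above every NMP sample. The log2 fold change was 3.44, 3.45, 3.20 and 3.66 in the same order, with adjusted p of 1.87e-08, 5.07e-10, 4.44e-10 and 5.45e-10.

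Tead1 lost one intronic element and gained another. Tead1 +12076 had 252, 228 and 381 normalized counts in the NMP samples and at most 65.5 in any sample of day 4, without overlap. It was called lower in all 4 types, by −2.63 in p0-1, −2.90 in p2, −2.96 in pMN and −2.83 in p3, and stayed under 105 in every sample to day 6. Tead1 +6062, in the same gene, had 66.7, 71.5 and 66.8 in NMP and medians of 325, 350.4, 361 and 209.5 in p0-1, p2, pMN and p3 at day 4. It was called higher in p0-1 (2.30), p2 (2.39) and pMN (2.40), and in p3 it gained 1.71 (adjusted p = 3.32e-07), below the fold threshold. Tead3 +5847, an intronic element of Tead3, had 490, 363 and 407 in NMP and a highest value of 114 in p2 and 95.4 in pMN, where it was called lower by −2.20 and −2.49. The change in p2 was −1.93 without replicate 1 and −1.69 with samples centred on the median of all elements, and was called in neither. Tead3 +9659, its most accessible element outside the promoter class, had 711 ± 113.6 (n = 3) in NMP and log2 fold changes of −1.13, −1.43, −1.70 and −1.29 in p0-1, p2, pMN and p3, each at an adjusted p under 0.01 but below the fold threshold.

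Of the coactivator genes, Wwtr1 alone had a called element. Wwtr1 +72007 had 20.6, 12.1 and 31.2 normalized counts in NMP and 153, 186, 189, 215 and 167 in p3 at day 4, where all 5 samples were above NMP, and it was called higher in p3 (3.04, adjusted p = 1.26e-08) and in pMN (2.66, adjusted p = 1.48e-07). Averaged over SAG, or without replicate 1, it was under the filter in pMN. In p0-1 and p2 its mean over the samples compared was under 100 and it was not tested. It was in p0-1 35.4 to 141, and in p2 115 to 164, against at most 31.2 in NMP.

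Vgll4 showed changes in both directions. Vgll4 +19703 had 411, 419 and 577 normalized counts in NMP and between 33.6 and 96.9 in the day 4 samples, and was called lower in all 4 types by −2.54 to −3.21. Vgll4 +38558 had 135, 105 and 135 in NMP and between 461 and 655 in the day 4 samples, and was called higher by 2.20, 2.25, 2.03 and 2.00 in p0-1, p2, pMN and p3. In p3 this value sits at the threshold. The call was lost without replicate 2 (1.91), without replicate 1 and without replicate 1 of p3 from 100 nM alone (1.97). It was also lost when samples were averaged over SAG (1.99). In pMN it was lost without replicate 2 (1.96). Vgll4 +88037, which lies in an intron of the neighboring gene Atg7, had 36.4, 31.0 and 38.8 in NMP and in p3 303, 415, 325, 353 and 304, a log2 fold change of 3.23 (adjusted p = 6.41e-11). It was also called in p0-1 (2.17, or 1.85 and not called without replicate 2) and p2 (2.36). Averaged over SAG it was under the filter in p0-1. In pMN, where it was under the filter, its 6 samples were between 71.1 and 122, below every p3 sample. The log2 fold change from pMN to p3 at day 4 was 1.82 (adjusted p = 3.03e-07), short of the fold threshold. In p3 it fell from 340.1 ± 46.7 (n = 5) at day 4 to 107 ± 7.15 (n = 4) at day 6 (−1.66, adjusted p = 1.26e-06), where all 4 samples were still above NMP. Vgll4 +32738 rose by 0.58 to 0.96 in the 4 types and Vgll4 −47460, annotated as promoter-TSS, changed by −0.82 to −1.23 from 1305 ± 119.1 (n = 3) in NMP, all at an adjusted p under 0.01 and none past the fold threshold. Of the 17 Vgll4 elements, 8 lie inside Atg7, which codes for an autophagy enzyme, and their annotation to Vgll4 rests on distance to the TSS alone.

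At the feedback genes, an element of Amotl2 closed and elements of Lats2 opened. Amotl2 −2371, just upstream of the Amotl2 TSS, had 1152, 1168 and 1092 normalized counts in NMP and at most 186 in any day 4 sample, and was called lower by −3.02, −3.24, −3.43 and −2.81 in p0-1, p2, pMN and p3. At Lats2, 3 elements were called higher. Lats2 +17560 had 17.0, 13.5 and 46.3 in NMP and medians of 171, 197 and 200.2 in p0-1, p2 and pMN (2.66, 2.91 and 2.92). Averaged over SAG it was under the filter in p0-1. Lats2 −19423 had 38.8, 24.3 and 29.1 in NMP and medians of 154, 143 and 143 in p0-1, p2 and p3 (2.18, 2.19 and 2.20). Averaged over SAG, or without replicate 1, it was under the filter in each of these types. Lats2 +3943 was called in p0-1 alone, at 2.28, from 65.5, 62.0 and 60.3 in NMP to a median of 288, and without replicate 3 its change fell just below the fold threshold and was not called. Its log2 fold change in p2 was 1.78, and in p3 its 5 samples, between 44.5 and 102, overlapped those of NMP. Lats2 +1537, the element nearest the annotated TSS, was under the filter in every comparison, with a mean of 175 in NMP and 17.6 to 45.0 at day 4.

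Markers of other cells also differed between NMP and day 4. Elements of Pou5f1, which marks ES cells, summed to between 1440.0 and 2201 normalized counts in NMP samples and to between 196 and 299.5 in day 4 samples. Those of the endoderm genes Sox17 and Gata6 summed to between 3204 and 3475 in NMP and to between 1365 and 2168 at day 4. The 2 genes went opposite ways. Group means at Sox17 were 3172 in NMP and 1206 to 1404 at day 4, and at Gata6 179 and 291 to 401. Elements of the paraxial mesoderm genes Meox1 and Tcf15 summed to between 2788 and 3449.8 in NMP, and 1239.8 and 2369 at day 4. Those of T and Tbx6 ranged from 4097 to 4659 in NMP and from 1665 to 2492 at day 4. Tbx6 alone had means of 778 in NMP and 522 to 589 at day 4. No list summed to near 0 in any group, and the part that such cells play in the changes above was not tested.

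**Figure D2:**
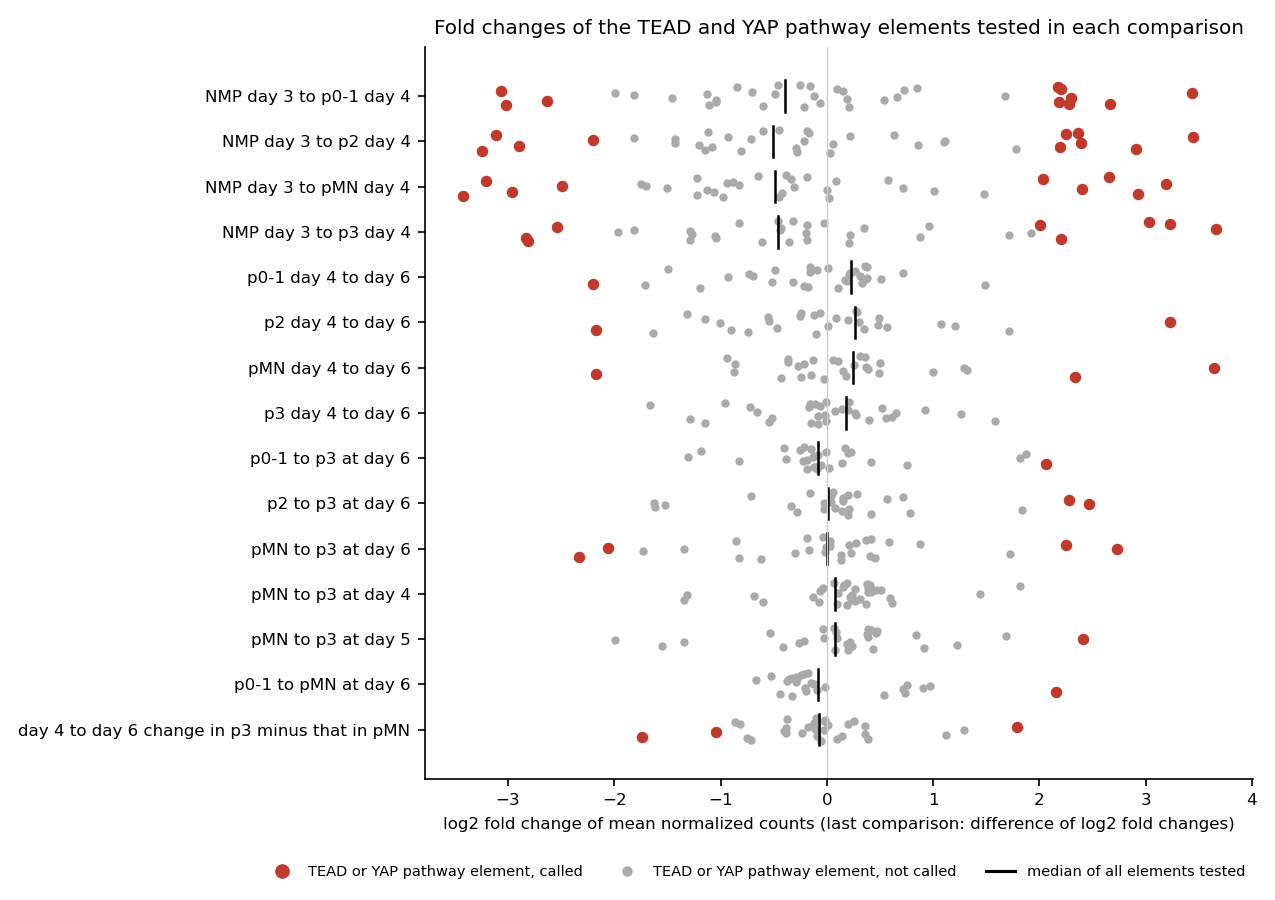
Log2 fold change of mean normalized counts (x axis) of every TEAD and YAP pathway element tested in each comparison (y axis), with called elements in red, others in gray and the median of all elements tested as a black line. Called elements are most frequent from NMP to day 4, where 8 to 10 were called, and there are none in p3 between days 4 and 6 or between pMN and p3 at day 4.

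Between the NP types, a few distal elements of Tead1 and Tead4 were called between p3 and other types. One of Lats2 was called between pMN and both p0-1 and p3. At day 6 the called elements were 1 of 29 tested from p0-1 to p3 (3.45%, against 12.6% of all elements), 2 of 27 from p2 (7.41% against 11.8%) and 4 of 29 from pMN (13.8% against 11.0%), the last near the background and the others below it. The 3 comparisons share the 4 p3 samples. At day 5, 1 of 29 was called from pMN to p3, against 5.66% of all elements, and at day 4 none of 33, against 1.25%. At day 4, 20 of the 33 had an unadjusted p under 0.05 in limma, against 11082 of 29636 elements in all. An adjusted p under 0.01 was reached by 9 (27.3%), against 17.9% of all elements. At day 5 it was reached by 17 of 29 (58.6% against 37.4%). From p0-1, p2 and pMN to p3 at day 6 it was reached by 6 of 29, 9 of 27 and 12 of 29. These were 20.7%, 33.3% and 41.4%, against 30.1%, 34.7% and 34.6% of all elements. Between p0-1 and pMN at day 6, 1 of 26 was called, against 2.90% of all elements. The 4 elements called between pMN and p3 at day 6 were 2 higher in p3, Tead4 +18571 and Tead1 −16062, and 2 lower, Lats2 +17560 and Tead1 −37479, against 5.03% and 5.97% of all elements.

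**Figure D3:**
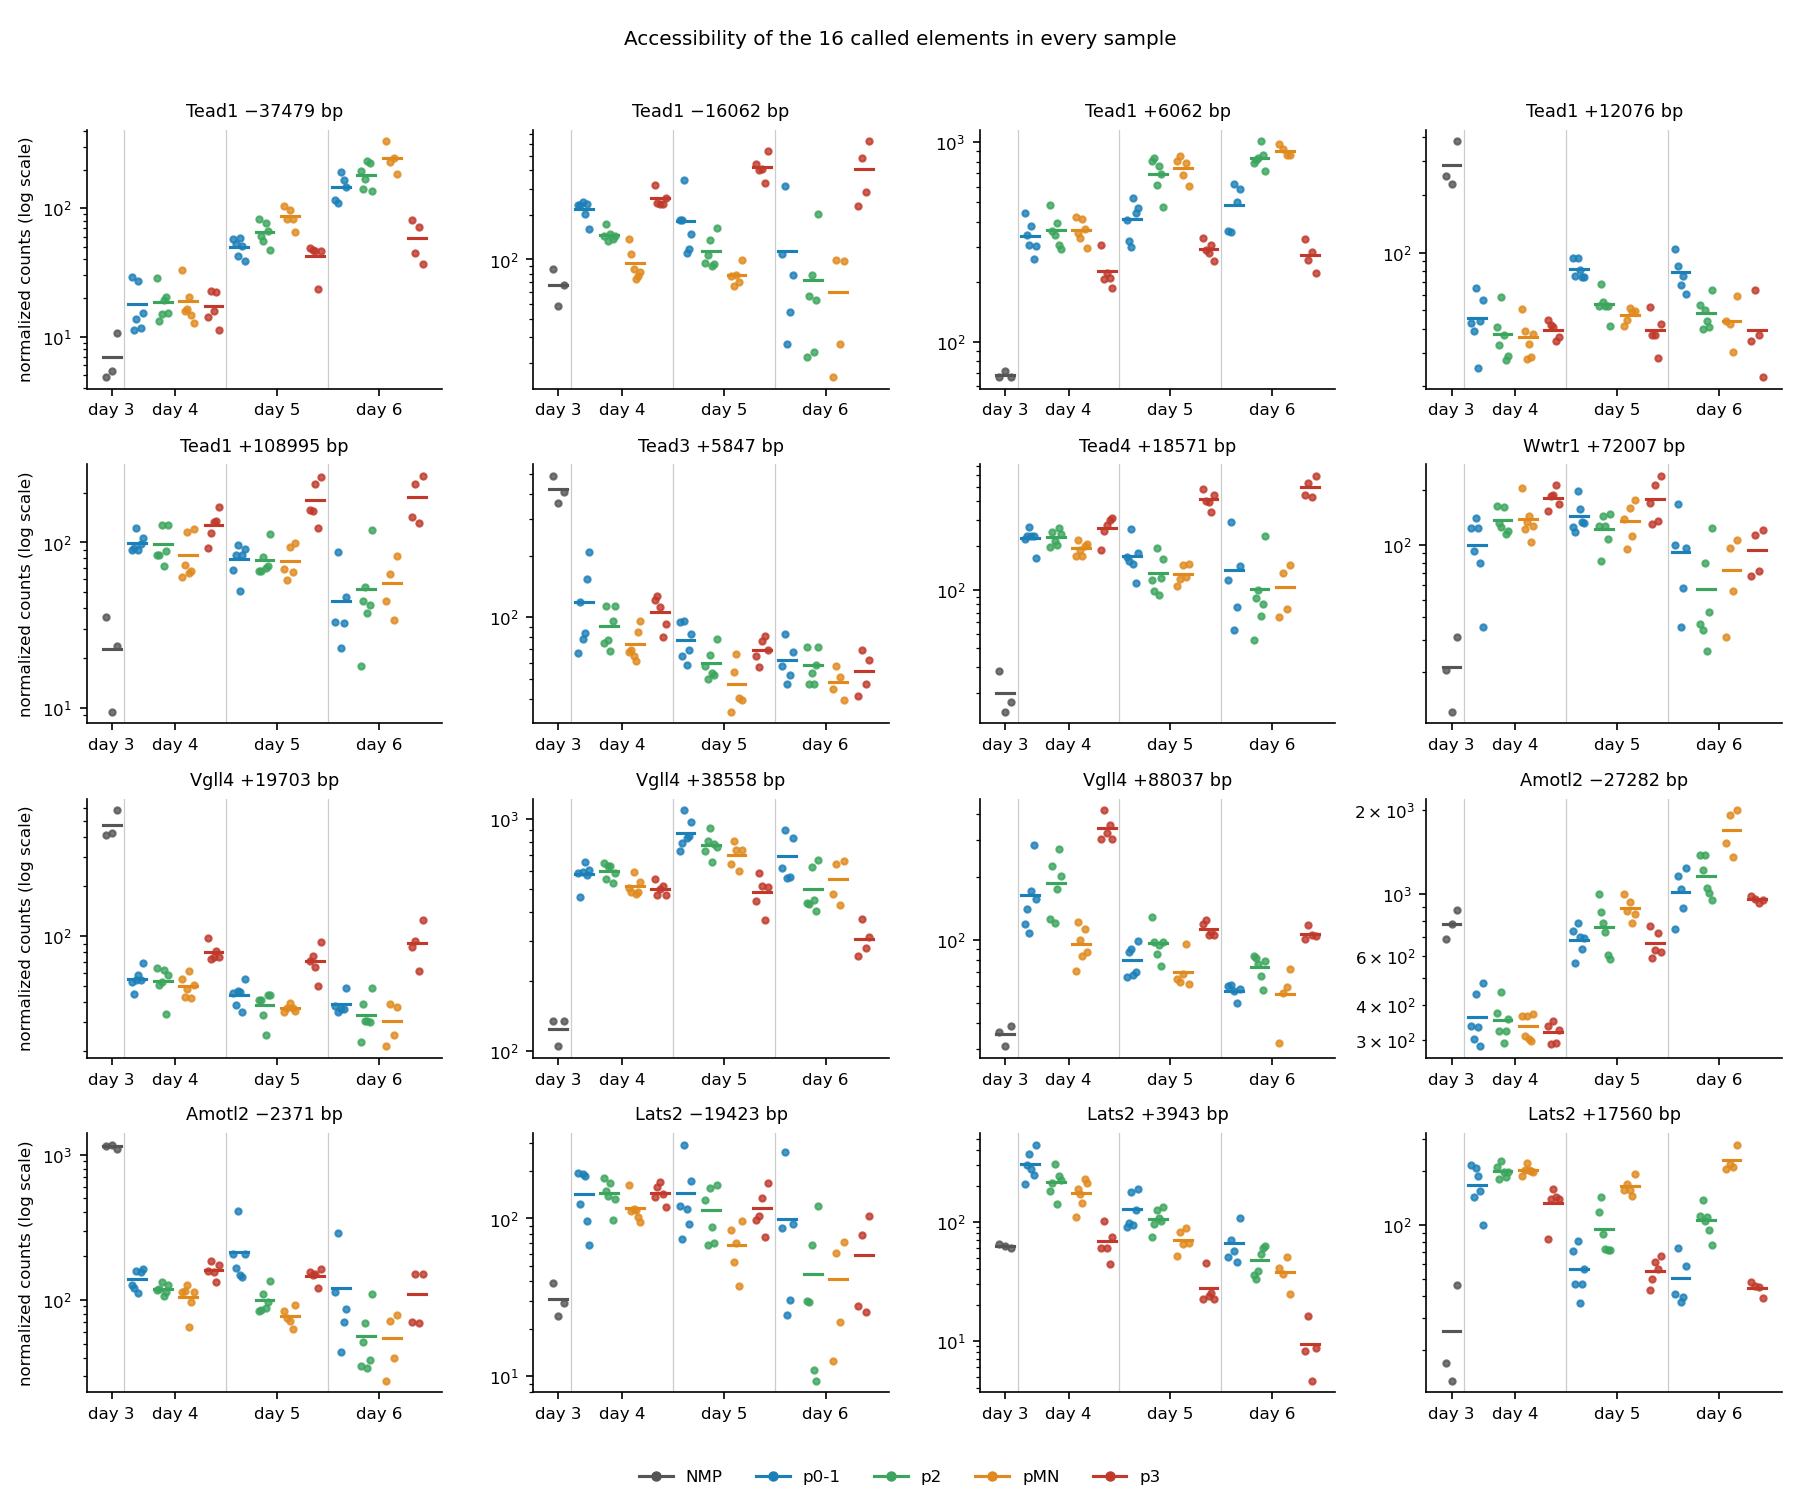
Normalized counts (y axis, log scale) of the 16 elements called in at least 1 comparison, in every sample. Groups are ordered by day (x axis) and colored by cell type, with points for samples and lines for group means. At day 6 the p3 samples of Tead4 +18571, between 428 and 597, and of Tead1 −16062, between 229 and 625, lie above all pMN samples, and those of Tead1 +6062, Tead1 −37479 and Lats2 +17560 below them.

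At Tead4 +18571 the NP types parted after day 4. In p3 the samples had 489, 405, 398, 340 and 445 normalized counts at day 5 and 442, 534, 428 and 597 at day 6. In pMN they had 106, 118, 147, 122 and 149 at day 5 and 65.4, 131, 74.2 and 147 at day 6, all below p3. In p0-1 at day 6 the samples had 117, 287, 53.2, 76.9 and 144, and in p2 the lowest, median and highest were 45.7, 84.3 and 233, also without overlap with p3. The log2 fold change to p3 at day 6 was 2.25 from pMN (adjusted p = 6.06e-05), 2.28 from p2 (adjusted p = 8.01e-05) and 1.88 from p0-1 (adjusted p = 0.00120), the last not called. Without replicate 3 of p2 from 100 nM, which is the 233, the change from p2 was 2.70, and without replicate 1 of every group it was 1.99 and was not called. From pMN to p3 it was 0.46 at day 4 (adjusted p = 0.0228) and 1.69 at day 5 (adjusted p = 1.49e-07). The change between days 4 and 6 was 0.92 in p3 and −0.87 in pMN, and the difference of 1.79 was called (VST difference 1.76 ± 0.261 SE, adjusted p = 6.86e-05). Averaged over SAG, its adjusted p was 0.0124 and it was not called.

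Tead1 −16062 was higher in p3 than in pMN already at day 4. Its p3 samples had 317, 239, 238, 237 and 259 normalized counts at day 4, and its pMN samples a lowest, median and highest of 74.1, 84.1 and 137. Those of p0-1 at day 4, between 161 and 243, overlapped p3, and those of p2 were between 134 and 173. At day 5 p3 had 438, 402, 406, 330.0 and 538, against 77.7, 66.2, 79.0, 71.0 and 99.2 in pMN. At day 6 p3 had 229, 486, 283 and 625, against 16.1, 99.5, 27.1 and 98.1 in pMN. The p3 and pMN samples did not overlap at any day. The log2 fold change from pMN to p3 was 1.44 (adjusted p = 5.85e-06), 2.41 (adjusted p = 2.87e-08, called) and 2.73 (adjusted p = 0.00156, called). Averaged over SAG, the adjusted p of the last was 0.0160 and it was not called. From p2 to p3 at day 6 it was 2.47 (adjusted p = 0.000933, called), and 3.09 without replicate 3 of p2 from 100 nM. Without replicate 2 of every group it was 2.76 (adjusted p = 0.0150), and averaged over SAG 2.47 (adjusted p = 0.0125), and was called in neither. From p0-1 it was 1.82 (adjusted p = 0.0122), and there 1 sample, at 312, lay within the range of p3. Tead1 +108995, an intronic element, had 143, 225, 132 and 253 in p3 at day 6 and 33.0, 87.2, 22.8, 32.6 and 46.5 in p0-1, a called difference of 2.06 (adjusted p = 0.000606). The call was lost without replicate 1 (1.90) or 2 (2.17, adjusted p = 0.0153), and without replicate 3 or averaged over SAG the element was under the filter. It was 1.83 from p2 and 1.72 from pMN, below the fold threshold.

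In the other direction, Tead1 +6062 and Tead1 −37479 were lower in p3 at day 6 than in p0-1, p2 and pMN, each at an adjusted p under 0.01. Tead1 +6062 rose from 364 ± 48.2 (n = 6) at day 4 to 908 ± 54.8 (n = 4) at day 6 in pMN, and was 226 ± 45.8 (n = 5) and 273 ± 45.4 (n = 4) in p3. Its 4 pMN samples at day 6, at 975, 929, 860 and 866, were above the 4 p3 samples, at 330, 258, 282 and 221. The difference of the changes, −1.04, was called (VST difference −1.03 ± 0.185 SE, adjusted p = 0.000395), and the difference at day 6 was −1.73 (adjusted p = 6.41e-06), not called. Without replicate 1 of p3 at day 4 from 100 nM, which had 305 and stood apart from the other 4, at 187 to 221, the difference of the changes was −0.91 and was not called, and without replicate 3 of every group it was −0.89 (adjusted p = 0.0259). Averaged over SAG it was −1.02 (adjusted p = 0.0241), and with samples centred on the median −0.97, neither called. Tead1 −37479 had 12.8, 16.2 and 33.3 as lowest, median and highest in pMN at day 4, and 332, 227, 245 and 186 at day 6, a rise of 3.64 (adjusted p = 1.22e-08). In p2 it rose by 3.23 (adjusted p = 6.48e-09) to a median of 181. In p3 at day 6 it had 80.8, 44.8, 71.6 and 36.9, below every pMN sample (−2.06, adjusted p = 0.000176), and without replicate 3 the difference was −1.91 and was not called. In p0-1 its mean at day 6 was 147 ± 34.5 (n = 5), and its mean over days 4 and 6 did not reach 100, so the rise was not tested.

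Lats2 +17560 had similar levels in pMN at days 4 and 6 and lower ones at day 6 in the other types. In pMN it had a median of 200.2 at day 4 and 205, 219, 209 and 279 at day 6. In p3 it had 82.8, 138, 158, 143 and 139 at day 4 and 47.8, 45.8, 45.0 and 38.8 at day 6, and in p0-1 at day 6 41.2, 74.3, 37.2, 39.6 and 59.1. The pMN samples were above all samples of p3 and p0-1 at day 6, and p2, between 76.6 and 137, lay between them. The log2 fold change was −2.34 from pMN to p3 (adjusted p = 7.61e-06) and 2.16 from p0-1 to pMN (adjusted p = 7.32e-05), both called, the latter not without replicate 2 (2.11, adjusted p = 0.0121). From day 4 to day 6 pMN changed by 0.18 (adjusted p = 0.189), and the change in p3 minus that in pMN was −1.74 (VST difference −1.50 ± 0.203 SE, adjusted p = 3.06e-05).

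**Figure D4:**
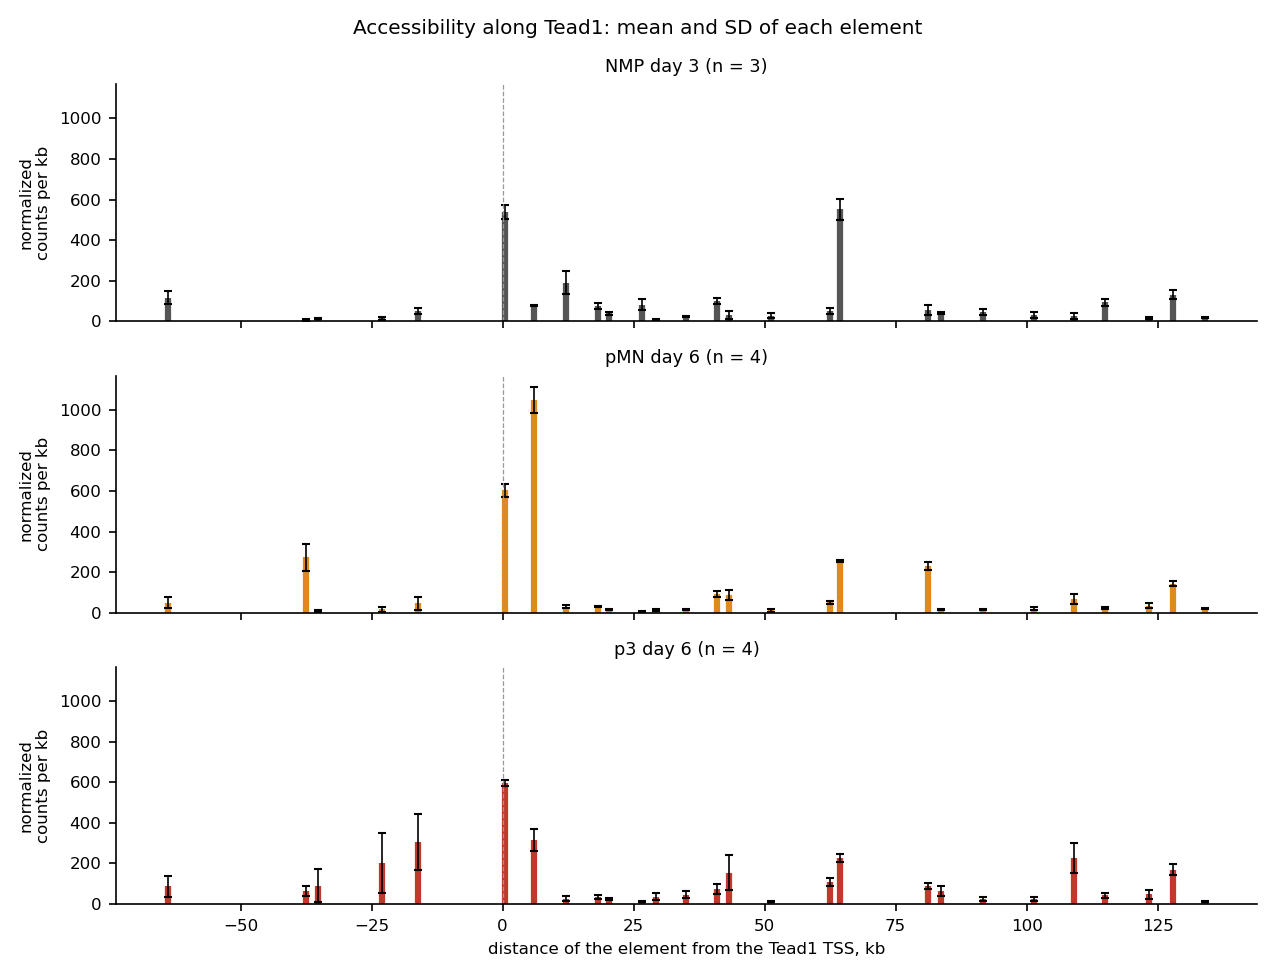
Mean normalized counts per kb (y axis) of the 27 Tead1 elements by distance from the Tead1 TSS in kb (x axis) in NMP at day 3, pMN at day 6 and p3 at day 6, with bars for the SD over samples. Tead1 −16062 and Tead1 +108995 are higher in p3 than in pMN and NMP, and Tead1 −37479 and Tead1 +6062 higher in pMN than in p3 and NMP.

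Summed over all 27 elements, Tead1 had 3886 ± 370.1 (n = 3) normalized counts in NMP and 4041 to 4468 in the 4 NP types at day 6, while single elements moved by up to 3.64 on the log2 scale. Summed over its 9 elements, Tead4 had 1873 ± 170.2 (n = 3) in NMP, 1823 ± 259.3 (n = 4) in p3 at day 6 and 936 ± 83.2 (n = 4) in pMN. The p3 samples, between 1572 and 2127, lay above the pMN samples, between 861 and 1010.1. The sums were not tested.

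Within a cell type, few elements were called between days 4 and 6. Called elements were 1 of 31 tested in p0-1 (9.00% of all elements), 2 of 29 in p2 (10.1%), 3 of 29 in pMN (9.92%) and none of 32 in p3 (9.13%). In p3, 16 of the 32 had an unadjusted p under 0.05 in limma, against 19329 of 31266 elements in all. An adjusted p under 0.01 was reached by 9 (28.1%), against 41.0% of all elements. In p0-1 it was reached by 7 of 31 (22.6% against 32.1%) and in pMN by 14 of 29 (48.3% against 56.6%). In p2 it was reached by 21 of 29 (72.4% against 60.1%), so most elements tested there differed, nearly all below the fold threshold. Lats2 +3943 was called lower in each of p0-1, p2 and pMN, by −2.20, −2.18 and −2.18, and Tead1 −37479 higher in p2 and pMN. Without replicate 3 the change of Lats2 +3943 in pMN was −1.85 and was not called. Tead1 −37479 was under the filter, and not tested, in p2 without replicate 1 or without replicate 3 of day 6 from 100 nM, and in pMN without replicate 2. Lats2 +3943 had in pMN a lowest, median and highest value of 110.1, 181 and 229 at day 4 and 41.2, 36.6, 50.1 and 24.5 at day 6, without overlap. In p3 at day 6 it had 8.25, 16.3, 4.62 and 8.74, the lowest of all groups, though it was under the filter there. Amotl2 −27282 had 781 ± 90.7 (n = 3) normalized counts in NMP and lower means, 319 to 362, in the 4 types at day 4. From day 4 to day 6 it rose in every type, from 335 ± 35.5 (n = 6) to 1692 ± 306.2 (n = 4) in pMN (2.33, adjusted p = 1.66e-09, called). In p3 it reached 956 ± 22.7 (n = 4). It rose by 1.49 in p0-1 (adjusted p = 8.65e-06), 1.72 in p2 (adjusted p = 9.13e-09) and 1.58 in p3 (adjusted p = 9.21e-08), below the fold threshold, and in each type all day 6 samples were above all day 4 samples. Elements of the neuronal genes Tubb3 and Neurod4 also rose in pMN, from sums of 1957 to 2499 at day 4 to 6063 to 6763 at day 6, though NPs were sorted as SOX2+, a gate for progenitors, and the part of neurons in these changes was not tested.

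At day 5 the concentration of SAG made no called difference within a cell type at a fold change over 2 without a replicate block. None of 31 elements tested was called in p0-1 between 0 and 10 nM (0.00318% of all), none of 28 in p2 between 10 and 100 nM, and none of 26 in pMN and none of 31 in p3 between 100 and 500 nM (0% of all in each). At an unadjusted p under 0.05 in limma there were 6, 5, 1 and 0 in the same order. Of all elements there were 4741 of 31401, 3721 of 32103, 855 of 32239 and 153 of 31179. The largest change in p0-1 was at Vgll4 +134545, −1.08 (adjusted p = 0.128), and the largest in p2, pMN and p3 were −0.79, −0.33 and −0.27. In a limma fit with the replicate number as a block, Vgll4 +134545 had an adjusted p of 0.000290 and was called. None was called with this block in p2, pMN or p3. Same-number samples of p0-1 deviated together at day 5, with a median pair correlation of 0.738. The share of all elements called with the block is not given here.

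The number of the replicate moved with several elements at day 6. Among 27 elements with a mean over 100 at day 6, replicate 3 was the highest of its cell type and SAG concentration in all 8 conditions for 7 (25.9%), against 11.4% of 32792 elements in all. These were Tead1 −16062, Tead4 +18571, Wwtr1 −13, Vgll4 +32738, Vgll4 +38558, Amotl2 +6125 and Amotl2 +8344. The differences between pMN and p3 were recomputed within each number. At Tead1 −16062 the log2 fold change was 3.51 within replicate 2 and 2.48 within replicate 3, and at Tead4 +18571 2.62 and 2.02, with 2 samples a group and no test. At Lats2 +17560 it was −2.14 and −2.53, and at Tead1 −37479 −1.91 and −2.31. All 4 kept their direction within both numbers. What differed between the differentiations was not tested.

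The levels of 32 elements over the filter peaked in NMP for 12 (37.5%, against 38.3% of all elements), in p0-1 at day 6 for 6 (18.8% against 17.0%), and in p3 at day 4 for 4 (12.5% against 2.21%). These 4 were Vgll4 +32738, Vgll4 +88037, Wwtr1 +72007 and Lats2 −19423. Only Vgll4 +88037 stood clear there, with a mean of 340 against 186 in p2 at day 4, and the others were near ties. The p3 means at days 4 and 5 were 1349.63 and 1349.59 at Vgll4 +32738, and 182 and 178 at Wwtr1 +72007. Lats2 −19423 had 144.9 in p3 at day 4 and 144.6 in p0-1 at day 5. Over the 25 condition means the elements of other genes most like Tead4 +18571 were Gbx2 +50994, Arhgef26 +71347 and Akap14 −104, with Pearson's r of 0.980, 0.979 and 0.978. Those most like Tead1 −16062 were Ergic1 +22958, Exoc6b +176265 and Ddx25 +34830, at 0.976, 0.967 and 0.962. Ranked by Spearman's rho, 1 of the 3 was the same in each case. The conditions share cells, days and depth, and no test was made.

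The rest of the pathway was read from 2 lists, 23 upstream regulators with 220 elements and 19 known target genes with 227. From NMP to p3 at day 4, 12 of 54 elements tested were called for the regulators (9 higher, 3 lower) and 14 of 51 for the targets (9 higher, 5 lower), with medians of −0.35 and −0.43 against −0.46 for all elements, of which 21.6% were called (13.8% higher, 7.74% lower). From pMN to p3 at day 6, 13 of 67 (4 higher, 9 lower) and 9 of 64 (5 higher, 4 lower) were called, against 11.0% of all elements (5.03% higher, 5.97% lower). From day 4 to day 6 in p3, where no element of the 9 genes was called, 6 of 58 regulator elements and 11 of 58 target elements were, and 10 of those 11 rose. Of all elements 9.13% were called, 7.44% higher and 1.69% lower. Among the targets, Ccn1 +3797, near the gene for the matrix protein CYR61, rose in p3 from 131 to 1037 normalized counts (2.97), Ccn2 −111154, annotated to the CTGF gene, by 2.38 and Asap1 +127540 by 5.21. From pMN to p3 at day 6, Crim1 +68305 was higher by 4.84 and Wwc1 −245531, annotated to the gene of the LATS activator KIBRA, lower by −3.32, from 1250.5 to 125. Named elements of these lists were chosen after their values were seen.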

How the data were processed

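CaTS-ATAC libraries of 67 sorted samples of mouse ES-derived progenitors were used. The authors ran the nf-core ATAC-seq pipeline on mm10, called peaks with MACS, merged them into consensus peaks, counted reads with featureCounts, annotated the nearest gene with HOMER, and deposited log2-like variance-stabilized (VST) values from DESeq2. These log2 values were inverted to normalized counts, of which 100% below 1000 reads came out whole (largest distance 6.0e-11). Reads in elements ranged from 9298160 to 29985325 per sample, and each count carries counting error. Of 92 annotated elements of the 9 genes, 6 were not in the table of values.

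VST values were tested with limma 3.58.1 (lmFit, eBayes with trend) in R 4.3.3, with Benjamini-Hochberg adjustment over all elements tested. Elements with a mean over 100 normalized counts in the samples compared were tested, and called at an adjusted p under 0.01 with an absolute log2 fold change of mean normalized counts (pseudocount 1) over 2, a fold change over 2 between SAG concentrations, or a log2 difference over 1 between changes. The fits were checked on simulated data. SAG concentrations of a cell type were pooled. Samples of the same replicate number deviated together (every pair over 0.1) from day 4 to day 6 in pMN, from p0-1, p2 and pMN to p3 and from p0-1 to pMN at day 6, from pMN to p3 at day 5, and between SAG concentrations in p0-1 and p2. The lowest pair correlation over these comparisons was 0.166. Titles and descriptions gave different replicate numbers for 15 samples, and the titles were used. Sequences came from GRCm38.p6 and gene models from GENCODE. Python 3.11.15 with numpy 2.4.6, pandas 2.3.3, scipy 1.17.1 and matplotlib 3.10.9 was used for the rest.

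The genes, the pathway lists and the marker lists were chosen with earlier results of these data known. Elements were named by rule: the promoter-TSS element or the one nearest the TSS of each gene, its highest other element, and up to 6 called elements of each comparison, of the largest change. Other called elements, those holding a TSS and Vgll4 +134545 were added after their values were seen. Alternatives covered the filter, the fold threshold, normalization, the fit, the replicate block and leaving out each replicate.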

Additional observations from a re-analysis of the deposited data

Results flagged for a closer look

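In 66 groups of 4 to 6 samples at called elements, 6 held a sample far from the others by Dixon's test, of which chance flags about 1 in 20. At Vgll4 +88037 in p0-1 at day 4, replicate 2 from 10 nM had 285 normalized counts, and the next sample 171. At Tead1 −37479 in pMN at day 4, replicate 1 from 100 nM had 33.3, and the next 20.4. Replicate 3 of p2 at day 6 from 100 nM was high at Tead4 +18571, with 233 against 99.4 for the next sample, and at Tead1 −16062, with 201 against 78.5. It is the same library that had raised values in the elements called higher in p3 than in pMN. Replicate 1 of p3 at day 4 from 100 nM was low at Lats2 +17560, with 82.8 against 138, and high at Tead1 +6062, with 305 against 221. What set these libraries apart was not tested.

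The change from day 4 to day 6 differed between p3 and pMN at 3 of 31 elements tested, against 10.6% of all elements, in a limma test of the difference itself. On the log2 scale, p3 minus pMN was −1.74 at Lats2 +17560 (adjusted p = 3.06e-05), 1.79 at Tead4 +18571 (adjusted p = 6.86e-05) and −1.04 at Tead1 +6062 (adjusted p = 0.000395).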

How the results depend on the processing

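No result reversed under any alternative. Calls of single elements were lost where a value lay near a threshold, and fitting the variance without a trend or with voom on the recovered reads moved no count by over 1.5 times. Counts of called elements below are given for NMP to p0-1, p2, pMN and p3 at day 4, for day 4 to day 6 in p0-1, p2, pMN and p3, or for the comparison named.

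At a lower fold threshold the counts from NMP were 18, 20, 18 and 17, from day 4 to day 6 they were 5, 9, 5 and 5, to p3 at day 6 from p0-1, p2 and pMN 4, 6 and 7, from pMN to p3 at days 4 and 5 they were 4 and 6, and for the difference of changes 5. Without a filter on the mean the counts from NMP were 22, 23, 16 and 23, those of days 4 to 6 in p0-1 and p3 were 3 and 1, those to p3 at day 6 from p0-1 and p2 were 8 and 7, those from pMN to p3 at days 4 and 5 were 1 and 4, that from p0-1 to pMN was 2 and that of the difference of changes 7. With a mean over 30 the counts from NMP to p0-1, p2 and p3 were 19, 18 and 19, those of days 4 to 6 in p0-1 and p3 were 3 and 1, those to p3 at day 6 from p0-1 and p2 were 7 and 6, that from pMN to p3 at day 5 was 3, that from p0-1 to pMN 2 and that of the difference of changes 7. These counts follow from the elements each rule lets in. They are given without the shares of all elements, so they are not a result about the 9 genes.

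With fold changes from VST values the count was 1 in p2 from day 4 to day 6, 0 from p0-1 to p3 and 0 from p0-1 to pMN. Averaged over SAG, which leaves fewer samples, it was 0 from p0-1 to p3, 1 from p2 to p3 and 1 for the difference of changes. Median-centred, it was 2 from pMN to p3 at day 5, and from NMP to p3 the split over all elements went from 4308 higher and 2410 lower to 4851 and 1450. Without replicate 3 of p2 at day 6 from 100 nM, chosen after seeing the data, the count was 1 in p2 from day 4 to day 6, since Tead1 −37479 fell under the filter.

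With the replicate block, 1 element, Vgll4 +134545, was called in p0-1 between 0 and 10 nM SAG. Likewise 1 was called with the numbers of the descriptions. The share of all elements is not given for either. For the difference of changes 5 were called with the block, where not every pair deviated together. The block changed no other call.

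Leaving out each replicate gave 9 to 10, 8 to 11, 8 to 9 and 7 to 9 called elements from NMP, and 1 to 2, 1 to 3, 2 to 3 and 0 to 0 from day 4 to day 6. The ranges were 0 to 2, 1 to 3 and 3 to 5 to p3 at day 6, 0 to 0 and 1 to 2 from pMN to p3 at days 4 and 5, 0 to 1 from p0-1 to pMN, 2 to 4 for the difference of changes and 0 to 0 between SAG concentrations. Depth limits the 43 elements under the filter, which were not tested.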
